A study of Mus musculus with 3 samples.

Results

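Peaks of Argonaute 2 (Ago2) binding at the 5′ ends of messenger RNAs were examined in HITS‐clip libraries from N2A cells, a mouse neuroblastoma line. A peak belonged to this set when its midpoint lay in an annotated 5′UTR, or within 50 nt of an annotated start codon, of a protein-coding gene on the same strand, and in no annotated 3′UTR. Of 2039384 deposited peaks 11937 met this rule, with 2227, 4315 and 5395 in replicates 1, 2 and 3. All 3 libraries came from unmodified cells under basal conditions, irradiated with a first UV dose of 400 mJ/cm2 and later doses of 200 mJ/cm2 to crosslink protein to RNA, and precipitated with anti-Ago2 (Wako clone 2D4). They form a single group, so every comparison below is between strands, parts of transcripts or libraries. A library without antibody and a library of input RNA were not analysed here, and the labels do not say whether the samples were separate cultures, so the spread between them may be technical. The read depth behind a peak is unknown, since the table holds intervals and no counts.

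Ago2 carries a microRNA (miRNA) and is guided by it to transcripts, mainly through pairing of miRNA positions 2 to 8, the seed. Sites in 3′UTRs are the best known. The 5′UTR is the stretch that the small ribosomal subunit scans from the cap to the start codon, and it is short and rich in G and C. Elongating ribosomes clear bound proteins from coding sequence and scanning subunits pass over the leader, so both are usually regarded as poorer ground for Ago2 than the 3′UTR. In HITS‐clip a peak may hold a fragment of a target transcript or of the miRNA itself.

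The sequences below show the kinds of site that the results turn on, in GRCm38, read 5′ to 3′ on the strand of the gene. Each of the first set lies inside a stretch covered by peaks of all 3 libraries and holds the start codon of the transcript with the longest coding sequence, in capitals. They are from Msh6 (chr17:87975137-87975166), Stom (chr2:35336902-35336931), Arrdc3 (chr13:80883638-80883667), Ndrg3 (chr2:156970076-156970105) and the histone genes Hist2h2ac (chr3:96220827-96220856) and Hist1h4h (chr13:23531103-23531132).
Msh6: tcagccttcatcATGtcccgacaaagcacc
Stom: gactccagcactATGtctgacaaacggcag
Arrdc3: tttgttataatcATGgtgctgggaaaggta
Ndrg3: tgagccatcctcATGgatgaacttcaggat
Hist2h2ac: atactctaagttATGtctggccgtggcaaa
Hist1h4h: agcaagtacaccATGtctggtcgtggcaag

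The second set holds, in capitals, the match to the seed of miR-15b-5p, the listed seed with the highest mean density ratio in these peaks. They are from stretches shared by all libraries in Slc35a5 (chr16:45158446-45158475), Satb1 (chr17:51811888-51811917), Shisa5 (chr9:109040951-109040980) and Scarb1 (chr5:125340962-125340991), and from Kbtbd2 (chr6:56789640-56789669) for let-7a-5p. The sites of miR-21a-5p, the miRNA the study followed, are from Arrdc3 (chr13:80883669-80883698) and Noct (chr3:51247594-51247623). The mature miRNAs follow with the seed in capitals, from RefSeq.
Slc35a5: tcaaaacctacTGCTGCTactacgaactta
Satb1: ttcaggtcTGCTGCTtttttttttttaaat
Shisa5: ccaaccaatacTGCTGCTcggacgtgctga
Scarb1: cctTGCTGCTgagggagtctcggcttctgt
Kbtbd2: tgcaacaaaatCTACCTCctgtattttccc
Arrdc3: agagtttgacaATAAGCTttgactgtctta
Noct: ttacaagcATAAGCTtagtttcgcgagaga
miR-15b-5p: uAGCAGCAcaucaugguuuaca
miR-103-3p: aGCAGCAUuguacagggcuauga
let-7a-5p: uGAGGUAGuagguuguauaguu
miR-17-5p: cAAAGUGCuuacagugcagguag
miR-21a-5p: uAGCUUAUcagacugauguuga

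Start-proximal peaks were a small part of each library. They made up 0.313% of the peaks of replicate 1 (95% Wilson interval 0.301 to 0.327%), 0.867% of replicate 2 (0.841 to 0.893%) and 0.65% of replicate 3 (0.633 to 0.668%), a mean of 0.61 ± 0.279% (SD, n = 3), where the 9.22 Mb of start-proximal sequence are 0.169% of both strands of the nuclear chromosomes. Intervals cover counting error only, and the libraries differed by more than it. Per Mb of annotated sequence the start-proximal peaks numbered 241.6, 468 and 585.2 in replicates 1, 2 and 3. This was 0.671, 0.505 and 0.513 times the density in coding sequence, and 0.451, 0.284 and 0.345 times that in 3′UTRs. The 5′ end was thus the sparser in every library, with mean ratios of 0.563 ± 0.0939 and 0.36 ± 0.0845 (n = 3). The exact sign-flip permutation test over 3 libraries, two-sided, gave p = 0.25 for both, the smallest it can give, so this test cannot reach 0.05 with 3 libraries. Against introns the ratio was 1.14, 3.56 and 1.78.

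The excess on the gene strand was carried mainly by peaks of 86 to 200 nt. Among peaks of 86 to 200 nt the gene strand held 756, 2774 and 3518 members in replicates 1, 2 and 3, and the opposite strand of the same sequence held 159, 135 and 222. The same-strand to opposite-strand ratio was 4.76, 20.5 and 15.8, or 13.7 ± 8.11 (exact p = 0.25). Among peaks of at most 85 nt the counts were 1353, 1411 and 1737 on the gene strand against 1123, 751 and 924 opposite, with ratios of 1.21, 1.88 and 1.88. The lowest ratio of the former class thus lay above the highest of the narrow class. Among the 60, 73 and 84 members wider than 200 and up to 1000 nt, with 39, 36 and 29 peaks opposite, the ratio was 1.54, 2.03 and 2.9, which overlapped the narrow class. Narrow peaks made up 60.8% of the members of replicate 1, but 32.7% and 32.2% of those of replicates 2 and 3. Over all widths the ratio was 1.62, 4.45 and 4.37, and its mean of 3.48 ± 1.61 was below that of coding sequence, 8.34 ± 4.53, and of 3′UTRs, 10.3 ± 6.13. Peaks over 1000 nt gave 58, 57 and 56 members and 50, 48 and 60 on the opposite strand, which did not separate.

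**Figure D1:**
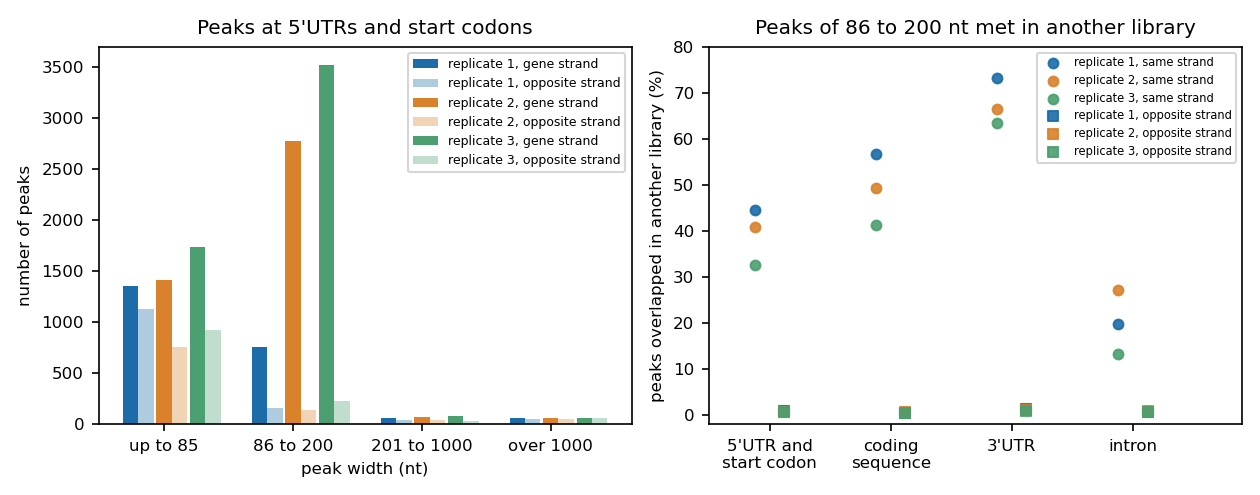
Left, number of peaks at 5′UTRs and start codons (vertical axis) by peak width in nt, with dark bars for the gene strand and pale bars for the opposite strand of each replicate. Right, percentage of peaks of 86 to 200 nt overlapped by such a peak of another library, one point a replicate, with circles for the same strand and squares for the opposite strand. The gene strand exceeds the opposite strand most for 86 to 200 nt, and start-proximal peaks (32.7 to 44.6%) lie below coding and 3′UTR peaks in each replicate.

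Most members lay in the leader itself. The midpoint was in 5′UTR and in no coding sequence for 70.1 ± 3.41% of members (n = 3), and in the 5′UTR of a transcript that is coding in another for 9.03 ± 1.84%. Coding sequence within 50 nt of a start codon held 18.3 ± 2.66%, and introns within that distance held 1.82 ± 0.901%. The peak interval held a whole start codon for 28.5%, 35.8% and 34.3% of the members of replicates 1, 2 and 3. With the 30 nt at each end taken away, the central part still did so for 11.1%, 15.3% and 14.2%. Annotated miRNA genes were met by the central part of 6, 19 and 13 members, and snoRNA or scaRNA genes by 4, 3 and 6.

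Peak density rose along the transcript and showed no summit at the start codon. For peaks of 86 to 200 nt, counted on 1 transcript a gene in 21558 genes, the density in the 150 nt that precede the last 150 nt of the leader was 52.7, 283.2 and 310 midpoints per Mb of transcript in replicates 1, 2 and 3. Over the last 50 nt of the leader it was 95.3, 394.6 and 465, and over the first 50 nt of coding sequence 117.8, 523.3 and 514.9. In the 150 nt that follow the first 150 nt of coding sequence it reached 148.9, 609.8 and 851. Replicate 1 was the lowest library in all these windows. With all widths, the density over the first 50 nt of coding sequence was 0.804 ± 0.102 times that in this last window (n = 3, exact p = 0.25). On the opposite strand the density of peaks of 86 to 200 nt stayed between 3.71 and 26.9 per Mb in every window and library. Within leaders of at least 100 nt the fifth nearest the cap held 8.49%, 10.7% and 9.78% of the peaks of this width, and the fifth nearest the start codon 29.7%, 29.8% and 32.3%. The opposite strand did not share this slope, with 23.3 ± 4.1% in the fifth nearest the cap and 13.6 ± 2.39% in that nearest the start codon. A fragment that begins at the cap cannot be centred at the cap, a limit that the opposite strand does not have. Its part in the slope was not tested.

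**Figure D2:**
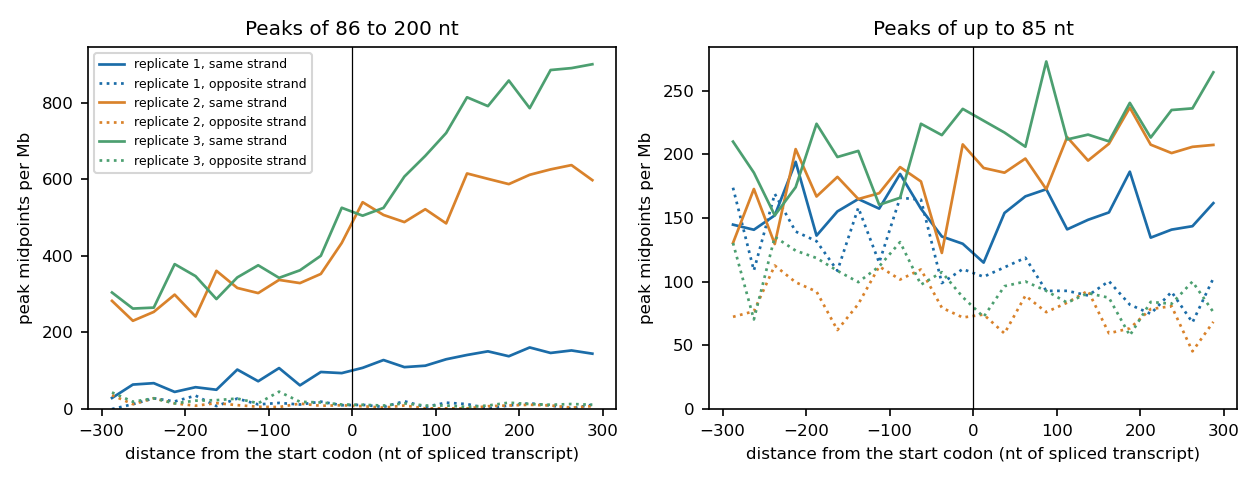
Peak midpoints per Mb of transcript (vertical axis) by distance from the start codon in nt of spliced transcript, in bins of 25 nt, for peaks of 86 to 200 nt (left) and up to 85 nt (right). Solid lines are the same strand and dotted lines the opposite strand of each replicate, and in the left panel the solid lines climb into the coding sequence while the dotted lines stay near 0.

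The libraries met at these sites less often than elsewhere in the mRNA. Of the members of 86 to 200 nt, 337 of 756, 1132 of 2774 and 1150 of 3518 were overlapped on the same strand by a peak of this width from another library, or 44.6%, 40.8% and 32.7%. Overlap with peaks on the opposite strand was 0.926%, 0.685% and 0.54%. Coding peaks of the same width were overlapped in 49.1 ± 7.73% and 3′UTR peaks in 67.8 ± 5.07%. The start-proximal share was lower than the coding share by 8.55 to 12.2 percentage points, and lower than the 3′UTR share by 25.7 to 30.8 points, in 3 of 3 libraries (exact p = 0.25 for each). It was higher than that of intronic peaks by 13.7 to 24.9 points. Narrow members were overlapped by narrow peaks in 11.7 ± 1.05%, against 3.1 ± 0.447% on the opposite strand. With all widths the share was 43.6 ± 4.08%, and it fell to 23.1% when replicate 2 was left out and 21.3% without replicate 3, in which case fewer peaks remain to overlap.

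At the level of genes, 1928, 3026 and 3542 of 21673 protein-coding genes with start-proximal sequence had a member in replicates 1, 2 and 3. At least 1 library gave a member in 6067 genes (28%), and all 3 libraries did in 442 (2.04%). The opposite strand of the same sequence met the latter rule in 32 genes (0.148%). With peaks of 86 to 200 nt only, 190 genes (0.877%) had a member in all libraries. Replicate 1 set these counts most: 1415 genes had a member in both other libraries, while 793 did without replicate 2. Leader length went with the count. Genes with a member in all libraries had a median of 772 nt of annotated 5′UTR, against 231 nt for the others, and the share of genes rose from 0.138% in the shortest of 5 equal classes of start-proximal length to 7.08% in the longest. On the opposite strand it rose too, from 0.0231% to 0.623%, with 27 of the 32 genes in the longest class. Of the 442 genes, 317 (71.7%) carried 3′UTR peaks in every library as well, beside 24.4% of all genes, and 233 (52.7%) coding peaks away from start codons, beside 15.5% of all genes. Only 19 (4.3%) had no 3′UTR peak in any library, beside 41.1% of all genes. How far abundance of a transcript sets these shares was not tested.

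The cell type label was checked by peaks anywhere in exons, found in all 3 libraries for 34.9% of genes. Of 20 neuronal and neuroblastoma markers 12 had them, against 1 of 10 myeloid, 0 of 8 erythroid, 1 of 8 hepatocyte, 1 of 8 muscle, 2 of 8 oligodendrocyte and 3 of 8 astrocyte markers. At their 5′ ends 0 genes of these 6 lists had a member in all libraries, beside 2.04% of all genes, and lists this short cannot show a lack.

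Gene groups differed in how often they carried start-proximal peaks, and the counts are to be read against 2.04% of all genes in all 3 libraries and 28% in at least 1. Ribosomal protein genes, whose mRNAs begin with a pyrimidine tract, stood near the background with 28 of 84 (33.3%) in at least 1 library and 0 in all 3. Their number per library was 6, 9 and 19, and on the opposite strand 5, 7 and 7. Peaks anywhere in their exons were found in all libraries for 17 (20.2%). The 6 found in a pair of libraries were Rpl21, Rpl23, Rpl34, Rpl41, Rpl8 and Rps20. Reads of these genes cannot be told from those of their processed copies where the sequence is the same. Other mRNAs with such a tract had a member in at least 1 library for 10 of 15 (66.7%) and in all 3 for 0, with Btf3, Cct5, Pabpc1, Rack1, Tpt1 and Vim in a pair of libraries. Translation initiation and elongation factors had 42 of 68 (61.8%) in at least 1 and 5 (7.35%) in all: Eif1a, Eif4g1, Eif4g2, Eif5 and Eif5a. The main coding sequence is that of the transcript in which it is longest. In replicate 1 the members of Eif4g1 lay 132 and 578 nt into it. Those of Eif5a lay 243 nt into it or outside that transcript's exons, so both genes counted there through other transcripts. Eif4g1 encodes the scaffold of the cap-binding complex and Eif5 the factor that triggers GTP hydrolysis at the start codon.

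Among genes whose translation is governed by upstream open reading frames, 4 of 19 (21.1%) had a member in all libraries. They were Atf4, the transcription factor of the integrated stress response, Azin1, an inhibitor of antizyme, Ibtk, and Tiparp. Tiparp counted in replicate 1 only through a member 536 nt into the main coding sequence, near the start codon of another transcript. Of 20 genes listed for structured leaders or internal ribosome entry, 3 (15%) had one in all libraries, namely Myc, the apoptosis inhibitor Bcl2, and Xiap, which blocks caspases, and 16 (80%) had one in at least 1. Of 20 abundant housekeeping genes 5 (25%) did in all, namely Hnrnpk, Ldha, Ppia, Tubb5 and Ywhaz, and 17 (85%) in at least 1. Of the neuronal and neuroblastoma list 2 of 20 (10%) did, Hand2, a transcription factor of sympathetic neurons, and Elavl4, a neuronal RNA-binding protein. Some of these members were centred outside the exons of the transcript with the longest coding sequence. This held for all members of Ppia and for those of Elavl4 in replicates 2 and 3. Tubb5 rested on 1 peak of 557 nt in replicate 2 and Ywhaz on 1 of 1275 nt in replicate 1, both centred outside those exons. The median start-proximal length was 603, 770, 700 and 328 nt in these 4 lists, and the part of length or abundance in these counts was not tested. Of 15 genes of the miRNA pathway 0 had a member in all libraries and 8 in at least 1. Olfactory receptor genes, silent in most cells, had 129 of 1092 (11.8%) in at least 1 library and 0 in all. They numbered 65, 38 and 42 in replicates 1, 2 and 3, and 83, 36 and 53 on the opposite strand.

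Replication-dependent histone genes have very short leaders, with a median of 103 nt of start-proximal sequence. Nevertheless 30 of 67 (44.8%) had a member in at least 1 library and 4 (5.97%) in all, Hist1h1c, Hist1h2bg, Hist1h4h and Hist2h2ac. In replicates 1, 2 and 3 a member was found in 7, 22 and 18 of the 67, and a peak on the opposite strand in 0 of them in every library. In all 4 genes the stretch shared by the libraries spanned the start codon, which the rule nearly fixes where so little leader is annotated. The sequences of Hist2h2ac and Hist1h4h are printed above, and the other two read as follows, from chr13:23571421-23571450 and chr13:23738837-23738866. All 4 windows occur once in the genome, although the coding parts of histone genes resemble each other and reads may be split between copies.
Hist1h2bg: cttgtttctaccATGcccgagcctgcgaag
Hist1h1c: cagagactcatcATGtctgaggctgctcct

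**Figure D3:**
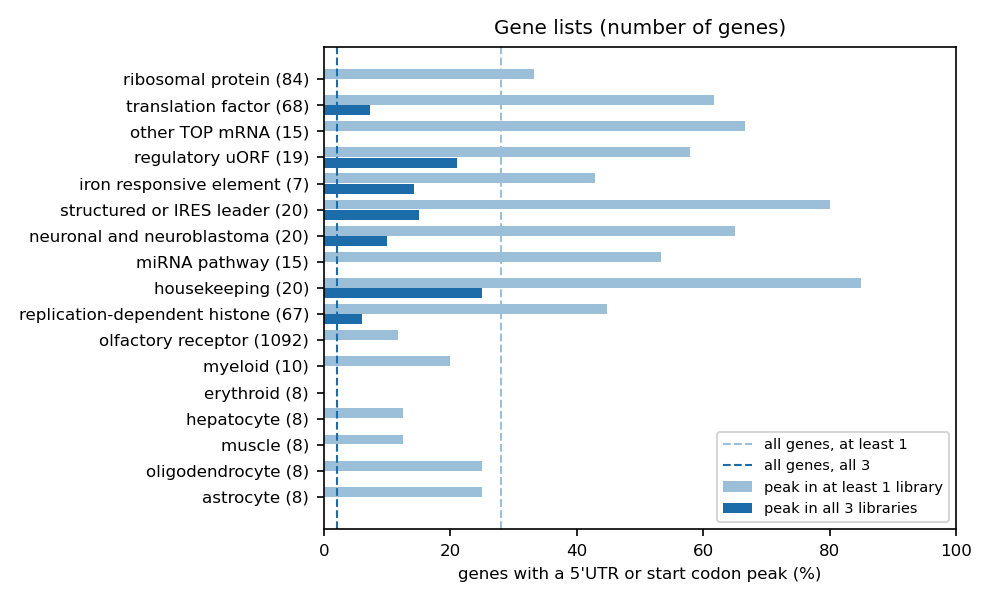
Percentage of genes of each list (horizontal axis, number of genes in parentheses) with a 5′UTR or start codon peak in at least 1 library (pale bars) and in all 3 (dark bars). Dashed lines mark the same shares over all genes, 28% and 2.04%, and the ribosomal protein, other TOP mRNA (terminal pyrimidine tract), miRNA pathway and olfactory receptor lists and the 6 lists of other cell types have no dark bar.

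The Argonaute genes had almost no start-proximal peaks. Their start-proximal sequence is short, in length classes where 0.185% (Ago1 and Ago2) and 0.692% (Ago3 and Ago4) of genes had a member in all libraries. Ago2 had 0, 1 and 0 in replicates 1, 2 and 3, with 2, 8 and 7 peaks in coding sequence and 32, 101 and 83 in its 3′UTR. Ago1 and Ago3 had 0 start-proximal peaks in every library, with 0, 23 and 14 and with 6, 45 and 33 peaks in their 3′UTRs, and Ago4 had neither, with 0, 0 and 2 peaks in coding sequence. Atf4 was the reverse case in counts, with 1, 5 and 2 start-proximal peaks and 1, 9 and 5 in coding sequence against 1, 1 and 0 in the 3′UTR. It has 647 nt of start-proximal sequence against 206 to 323 nt in the Argonaute genes, and these counts were not divided by length. Its peaks in replicate 2 had midpoints 250, 206, 116 and 52 nt before the start codon and 17 nt into the coding sequence, that of replicate 1 was 34 nt before it, and those of replicate 3 were 222 and 154 nt before it, so the leader carried peaks in every library but no stretch was common to all.

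Myc had 1, 4 and 3 start-proximal peaks, and its neuroblastoma relative Mycn had 0, 3 and 0. Fth1, the ferritin heavy chain that binds iron regulatory proteins through its leader, has 1057 nt of start-proximal sequence. Without regard to length, it had 2, 4 and 4 start-proximal peaks, against 1, 0 and 0 in its 3′UTR. Of these 1, 2 and 2 lay 136 to 233 nt into the main coding sequence, beside the start codon of another transcript, where the libraries shared 87 nt (chr19:9984220-9984306). Over the main start codon they shared 23 nt (chr19:9982856-9982878, gccccgccgccaccATGaccacc). Ftl1, the ferritin light chain, had 0 in every library and 0, 0 and 1 exonic peaks. Tubb3, a neuronal tubulin, had 0 start-proximal peaks and 1, 6 and 5 exonic ones.

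Stretches of at least 8 nt covered by members of all libraries, called common regions, numbered 219 in 183 genes, against 7 on the opposite strand. Their median length was 65 nt, and 200 lay wholly in annotated exons. A whole start codon was held by 54 (24.7%), and for 38 of these it was that of the transcript with the longest coding sequence. Trimming of 30 nt from each side left 100 regions, of which 8% held one. Without replicate 1 there were 1201 common regions, without replicate 2 there were 500 and without replicate 3 there were 421. With peaks of 86 to 200 nt only there were 88.

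Agreement in position is the length covered in all libraries over that covered in any. The 8 regions above 0.9 included Vps45, a regulator of vesicle fusion, where the 3 libraries had the same 79 nt (chr3:96057920-96057998, minus strand). At Ids, a lysosomal sulfatase, widths were 84, 83 and 84 nt, at Sgcz, a sarcoglycan, 83, 85 and 84 nt, at Asb1 79, 83 and 79 nt, and at Sap18, a histone deacetylase subunit, 85, 87 and 85 nt. Peaks of like precision were seen at Oprl1, the nociceptin receptor, and Tmco3. The lowest agreement of these 7 genes was 0.952, at Asb1, and the remaining region lay where Adora3 and Tmigd3 overlap (0.918). At Sgcz 63.9% of the shared stretch lay in annotated exons.

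After these 7 genes, among regions with a central overlap of at least 19 nt, the agreement was highest over the start codon of Msh6, a mismatch repair protein (0.845), then Stom (0.798), Ift57 (0.729), the arrestin-like Arrdc3 (0.724), Ndrg3 (0.718) and Btbd3 (0.692), and over the leader of Hp1bp3 (0.732). Serhl, with an agreement of 0.886 and a central overlap of 18 nt away from a start codon, and Hist2h2ac, with 0.771 and 17 nt, fell short of that limit. At Msh6 the midpoints lay 8, 16 and 8 nt into the coding sequence, at Ndrg3 16, 7 and 10 nt, and at Stom 13, 17 and 12 nt before it. The start codons of Ift57 and Btbd3 are those of other transcripts than the longest coding one. At Tmx3 (agreement 0.783) the region lay away from a start codon.

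**Figure D4:**
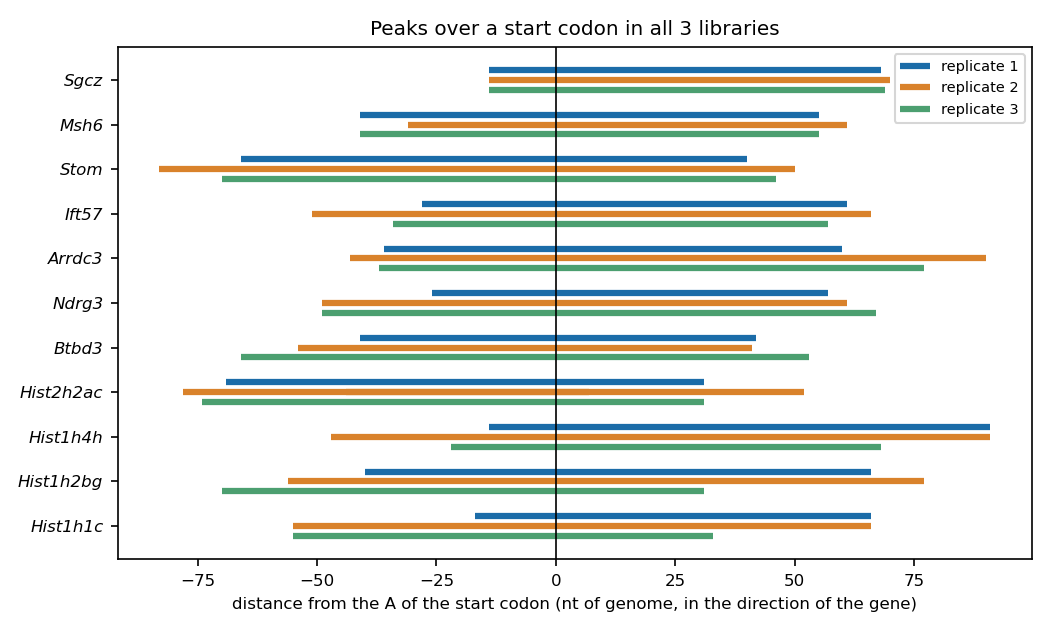
Extent of the start-proximal peaks of each replicate (coloured bars) at 11 genes whose common region holds a start codon, by distance in nt of genome from the A of that codon, in the direction of the gene. The upper 7 genes were chosen by agreement in position and the lower 4 are histone genes. The bars cross the line at 0 because the genes were chosen for that, and what differs between genes is how closely the ends of the 3 bars match.

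Several leaders carried peaks over a long stretch. Noct, which encodes the circadian protein nocturnin, had 13, 25 and 28 members in replicates 1, 2 and 3 and 11 common regions, 762 nt in all, against 6, 5 and 2 peaks in its 3′UTR. All 11 lie in chr3:51245466-51247861, in an exon that is 5′UTR in an annotated transcript, and the last holds that transcript's start codon. Most of this exon is outside the transcript with the longest coding sequence, and all but 1, 1 and 0 of the members lay outside the exons of that transcript. BC005537 had 3, 12 and 15 members and 5 common regions, and Sipa1l2 and 2410002F23Rik had 3 each. Among genes with a pair of regions, those of greatest total length were Scd2, a fatty acid desaturase, Mbnl1, a splicing regulator, Zbtb18, Ddx39b, Trib2 and Aprt. Not all of these regions lay in the main leader. At 1 region of Trib2 the members were centred 361, 358 and 364 nt into the main coding sequence. At 1 region of Aprt members were centred 106, 129 and 149 nt into it. Some of these sets rest on a single long peak. All regions of Sipa1l2 lie under a peak of 883 nt and 4 of those of BC005537 meet a peak of 434 nt, both of replicate 1, and both regions of Ddx39b lie under a peak of 1370 nt and both of Zbtb18 meet a peak of 574 nt, of replicate 2. In Ddx39b and 2410002F23Rik 1 region each overlapped an annotated snoRNA gene, so those fragments cannot be told from the small RNA. The region of Scd2 nearest its start codon was the longest of all at 221 nt, and Scd2 had 5, 4 and 3 members beside 29, 28 and 10 peaks in its 3′UTR.

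The central parts of the shared peaks at the 7 genes of highest agreement were compared with 1679 mature mouse miRNAs, a comparison made after their values were seen. At Sap18 the central 24 nt (chr14:57798467-57798490) held 21 of the 22 letters of miR-3077-3p, whose gene is annotated there. At Ids (chrX:70364999-70365021) 17 letters stood in the same places as in miR-210-3p, against at most 14 for any other miRNA. At Sgcz (chr8:38660725-38660747) 17 did so with miR-339-5p, against at most 13. At Asb1 (chr1:91552111-91552129) 15 of 19 did so with miR-27a-3p, and at most 14 with any other. The longest unbroken run at Asb1 was 10 letters with miR-6241, against 6 with miR-27a-3p, so no miRNA stood apart there. At Oprl1 the best without a gap was miR-1970c-5p with 14, and with 1 gap allowed let-7i-5p with 16, against at most 15 for any other, so no miRNA stood apart. For Vps45 and Tmco3 the best were 14 with 1 gap, shared by 2 miRNAs each. The genes of miR-210-3p, miR-339-5p and miR-27a-3p lie on chromosomes 7, 5 and 8, and those of Ids, Sgcz and Asb1 on chromosomes X, 8 and 1. Each central part occurs once in the genome. Capitals mark the letters in the same place.
Sap18: TGACTCCCTGCTTCTCCGCAGacc
miR-3077-3p: cUGACUCCCUGCUUCUCCGCAG
Ids: CTtTGgtgGTGACAGCGGCTGca
miR-210-3p: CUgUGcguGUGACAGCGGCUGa
Sgcz: aCCtgGaCaTCCAGGAGCTCAaG
miR-339-5p: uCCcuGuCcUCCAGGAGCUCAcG
Asb1: TTCACgGcGGCTAAccTCC
miR-27a-3p: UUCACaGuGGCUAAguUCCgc

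Over all narrow members outside annotated miRNA genes, the central part held a run of 12 letters of a mature miRNA in 133 of 3963 peaks (3.36%) seen in a single library. The count was 20 of 466 (4.29%) for peaks met in a second library and 8 of 51 (15.7%) for those met in all 3. The 51 peaks are 19 loci, of which 3 held such a run, and these include Ids and Sgcz, which prompted the count, so the last share repeats what was seen there. For runs of 12 letters on the opposite strand the counts were 96 of 2524 (3.8%), 14 of 258 (5.43%) and 0 of 12, at 4 loci. With runs of 13 letters the share was 0.959% in a single library and 2.15% in a pair, below the 1.86% and 4.26% of the opposite strand, and in all libraries it was 9.8% (5 of 51 peaks, at 2 of 19 loci, Ids among them) against 0 of 12. Peaks of a locus are not independent, and no test was made. Whether fragments of miRNAs aligned at these genes was not tested.

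Sequence composition set the covered parts of leaders apart. The common regions had 48.7% G and C and all 5′UTR sequence 56.9%, a difference of -8.25 percentage points, which was -4.96 without replicate 1. These sets are unlike, since common regions come from 183 genes and can hold coding bases near start codons. In single libraries, start-proximal bases under peaks of 86 to 200 nt had 51.6%, 55.4% and 53.5% G and C, and the uncovered bases of the same genes 55.8%, 57.6% and 58.1%. The difference was -3.68 ± 1.26 points (n = 3, exact p = 0.25), beside -4.87 ± 0.476 in 3′UTRs. Runs of 4 G were 0.698 ± 0.015 times as dense inside peaks as outside, below 1 in all libraries as in 3′UTRs (0.75 ± 0.0223), and AATAAA, the polyadenylation signal, 1.77 ± 0.0453 times. GGCGGC gave 0.811, 1 and 0.88, so the libraries were divided.

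In windows of 65 nt centred on the common regions, GGGG was found in 13.2% of 219 regions against 27% of 96159 windows tiled over all 5′UTRs, and TTTTT in 12.3% against 6.39%. The same unlikeness of genes and of coding bases holds for these shares. The share with ATG is not compared, since the rule that chose the peaks favours sequence near start codons. Motifs were searched on the strand of the gene alone. Per base, ATG was 0.945 ± 0.107 times as dense inside peaks as outside in bases that are coding in no transcript (exact p = 0.75), and 1.38 ± 0.0257 times in coding bases, which include the start codons (exact p = 0.25), so in the leaders it did not differ beyond the spread between libraries. Members that covered an annotated transcript start had a C followed by 4 pyrimidines there for 2.84 ± 0.09% of 241, 416 and 438 genes, beside 2.24% of all genes.

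Seed matches of 29 miRNAs were counted inside and outside the peaks of 86 to 200 nt, in the same start-proximal sequences. Of the 30 listed, miR-124-3p had no entry in the sequence table. Density inside over outside was above 1 in all libraries for 12 seeds and below 1 in all for 2, miR-125b-5p and miR-128-3p, with a median ratio of 1.3. In 3′UTR peaks it was above 1 in all libraries for 16 and below 1 in all for 7, with a median of 1.09. The peaks are poorer in G and C than their surroundings, and the seed sites differ in these letters.

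The site of miR-15b-5p (TGCTGCT), a seed shared by the miR-15 and miR-16 family, occurred 42, 147 and 115 times inside start-proximal peaks of replicates 1, 2 and 3. Matches that overlap were each counted, so a longer repeat of these letters adds more than 1 site. The density of TGCTGCT was 2.04 ± 0.607 times that outside (exact p = 0.25), beside 1.09 ± 0.131 in 3′UTR peaks. The log2 ratio was higher at the 5′ end in 3 of 3 libraries, by 0.86 ± 0.39 (exact p = 0.25). The site of miR-103-3p (ATGCTGC), which overlaps it by 6 letters, gave 12, 38 and 40 sites and 2.03 ± 0.306, beside 1.06 ± 0.0369. Both ratios were above 1 in every library in non-coding bases, at 1.75 ± 0.545 and 1.38 ± 0.557, and in coding bases. In non-coding bases ATGCTGC gave 2.025, 1.07 and 1.052 in replicates 1, 2 and 3, on 6, 8 and 13 inside sites. In coding bases TGCTGCT gave 5.27, 2.49 and 1.32, so replicate 1, with 23 sites inside peaks and 9 outside, stood highest. ATGCTGC gave 3.09, 1.49 and 2.3 there, and it begins with ATG, which alone gave 1.38 ± 0.0257. TGCTGCT lay in 6 common regions, in Mia2, Slc35a5, Phf1, Satb1, Scarb1 and Shisa5.

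The let-7a-5p site (CTACCTC) gave 8, 33 and 23 sites inside start-proximal peaks and a ratio of 1.81 ± 0.454, against 1.2 ± 0.175 in 3′UTRs, and was higher at the 5′ end in 3 of 3 libraries. In coding bases near the start codon replicate 1 had 0 inside sites. It lay in common regions of Noct and Kbtbd2. The miR-17-5p site (GCACTTT) went the other way, with 4, 26 and 20 sites and 1.44 ± 0.464 at the 5′ end and 1.73 ± 0.374 in 3′UTRs, higher in 3′UTRs in 3 of 3 libraries. So did that of miR-30a-5p, at 1.14 ± 0.108 and 1.66 ± 0.136. For miR-21a-5p (ATAAGCT) 3, 6 and 13 sites gave 1.5 ± 0.291 at the 5′ end and 1.49 ± 0.212 in 3′UTRs, with a log2 difference of 0.00 ± 0.46 and the libraries divided (exact p = 1). For miR-92a-3p, 1.3 ± 0.791 against 1.91 ± 0.264, the 5′ value rested on 3, 4 and 7 sites and the libraries were divided. The miR-125b-5p site (CTCAGGG) was rarer inside peaks at both ends, at 0.846 ± 0.104 and 0.68 ± 0.0214. The exact test gave p = 0.25 for each difference between the ends in which the libraries were not divided, so none of the 29 comparisons passes after Benjamini-Hochberg adjustment.

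**Figure D5:**
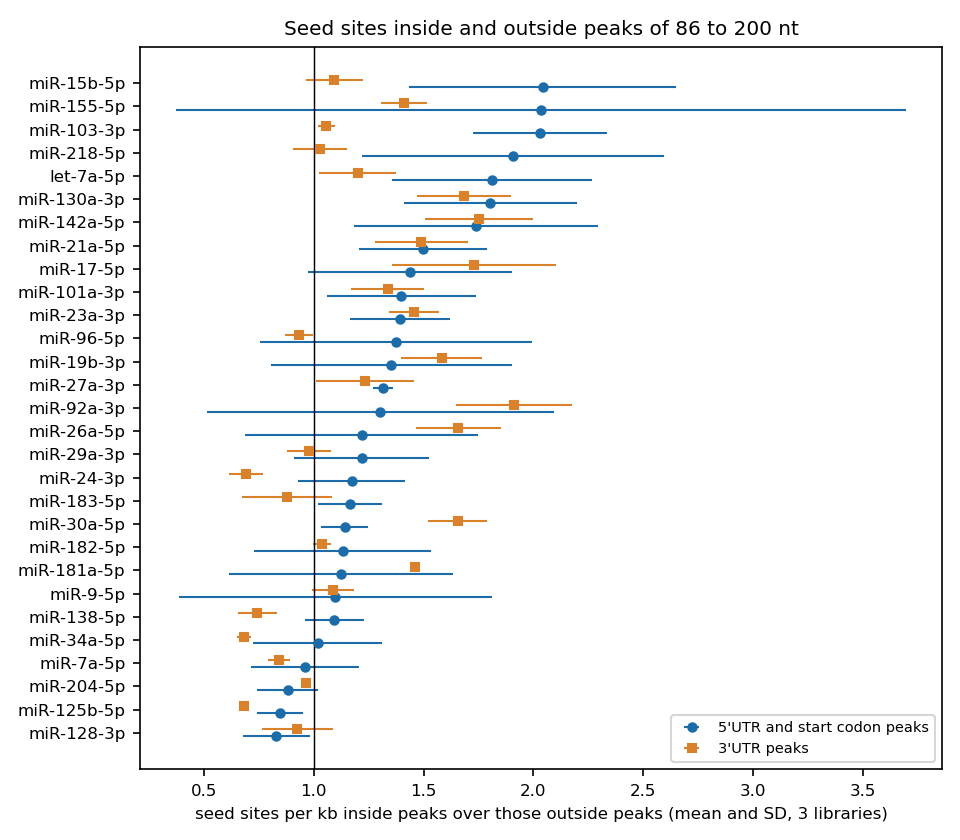
Density of seed sites per kb inside peaks of 86 to 200 nt over that outside peaks in the same sequences (horizontal axis, mean and SD over 3 libraries) for 29 miRNAs, with circles for 5′UTR and start codon peaks and squares for 3′UTR peaks. The circles of miR-15b-5p and miR-103-3p lie near 2 with squares near 1, and the squares of miR-30a-5p and miR-92a-3p lie to the right of their circles.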

How the data were processed

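Peaks were obtained from 3 Ago2 HITS‐clip libraries of N2A cells. Reads had been handled by the authors with FastQC, cutadapt and STAR on mm10, as the submitters' processing notes name them, and the peak caller, its threshold and the tool versions are not given in the sources used here. The deposited table gave, for each peak of each library, its interval, strand and a score that was tied at 60 for 97.8 to 99.6% of the members, and the score was used for no comparison. The table held 0 unused columns of sample values. It holds no read counts, so neither depth nor precision per peak could be computed.

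The members, gene lists, width classes and miRNAs were chosen with earlier results of these data known. Midpoints were placed on GENCODE M21 with sequence from GRCm38, whose chromosomes are those of mm10. Peaks were never narrower than 79 nt and were taken as padded by 30 nt on each side, the rest being the central part. Widths of up to 85, 86 to 200, 201 to 1000 and over 1000 nt were kept apart. Regions on the opposite strand were counted in the same way as background. Differences between parts of transcripts were tested by the exact sign-flip permutation test over 3 libraries, two-sided. Seed sites and motifs were counted on the strand of the gene, as sites per kb inside and outside peaks of the same sequences.

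Genes were named by rule: the 15 with the highest agreement in position (peaks up to 200 nt, central overlap of at least 19 nt), the 10 with the most common regions (ties by their total length), list genes with a common region, and 10 fixed genes. Adora3 and Tmigd3, Serhl, the pairs of peaks and miRNAs, and list genes without a common region were named after their values were seen. Mature miRNAs came from RefSeq. Counting steps were tested on simulated data. Tools were pysam 0.24.0, SciPy 1.17.1, pandas 2.3.3, matplotlib 3.10.9 and NumPy 2.4.6 under Python 3.11.15.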

Additional observations from a re-analysis of the deposited data

How the results depend on the processing

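Read depth is unknown and the score is tied, so a peak supported by few reads could not be told from a deep one, and absence of a peak in a library is no measure of absence of binding. Of 74 values recomputed under other settings, 25 moved beyond the limits set for each kind of result (a factor of 1.5 for counts and the GC difference, the counting interval for the share over a start codon, the SD between libraries for other shares) and 0 reversed. For tested ratios only direction and threshold were compared, and the strand ratio of 3.48 was 13.7 with peaks of 86 to 200 nt and 1.66 with peaks of at most 85 nt. Leaving out 1 library gave 21.3 to 37.5% of members overlapped by another library, 663 to 1415 genes with a member in all libraries, 421 to 1201 common regions, of which 25.6 to 34.7% spanned a start codon, and a GC difference of -6.6 to -4.96 points. The highest counts were those without replicate 1. Over the same settings the share of peaks was 0.482 to 0.759%, the strand ratio 3 to 4.41 and the density ratio at the start codon 0.769 to 0.863. With peaks of 86 to 200 nt only, the share of peaks was 1.06%, the overlapped share 39.4%, the genes 190 and the common regions 88. The overlapped share was 25.9% when 50% of both peaks had to be shared and 30.4% between central parts. Genes numbered 697 when the central part decided in place of the midpoint, and 1987 with a member in at least 2 libraries. Peaks trimmed by 30 nt on each side left 100 common regions, 8% of them over a start codon, and any same-strand peak at the locus gave 431. In settings chosen after seeing the data, peaks of at most 85 nt gave an overlapped share of 11.7%, 56 genes and 14 common regions, and peaks of at most 1000 nt an overlapped share of 39.0%. Apart from the smaller number of libraries or peaks in such settings, the cause was not tested. The basic annotation set was not run for the density ratio at the start codon, which already used it. No paired analysis was possible because there is no second group to pair the samples with; the tests compared parts of transcripts within each library.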
